A study of Mus musculus with 2 samples.

Results

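The 33 genes described here carry glucose into the cell, break it down to pyruvate and lactate, export the lactate, regulate these steps, respond to low oxygen, or turn glucose into sorbitol and fructose. They were chosen by symbol from the 32285 genes of the count tables: 2 glucose transporter genes (Slc2a1, Slc2a3), 15 genes of the glycolytic enzymes (Hk1, Hk2, Gpi1, Pfkl, Pfkm, Pfkp, Aldoa, Aldoc, Tpi1, Gapdh, Pgk1, Pgam1, Eno1, Eno2, Pkm), 4 lactate genes (Ldha, Ldhb, Slc16a1, Slc16a3), 4 control genes (Pfkfb2, Pfkfb3, Pdk1, Pdk3), 6 hypoxia-response genes (Hif1a, Epas1, Egln1, Egln3, Ankrd37, Higd1a) and 2 polyol genes (Akr1b3, Sord). On the GENCODE annotation of GRCm38, the genes the results turn on lie as follows: Slc2a1 at chr4:119108711-119137983 (plus strand), Hk2 at chr6:82725025-82774454 (minus strand), Slc16a1 at chr3:104638668-104658462 (plus strand), Aldoc at chr11:78322968-78327781 (plus strand), Hif1a at chr12:73901375-73947530 (plus strand) and Epas1 at chr17:86753700-86833410 (plus strand). All 33 had at least 1 UMI (unique molecular identifier, which marks 1 captured transcript) in each pool. The data are droplet single-cell RNA counts of freshly isolated lens epithelium from wild-type C57BL/6N mouse pups at postnatal day 2 (P2). The 2 samples, replicate 1 and replicate 2, were each a pool of lenses from 4 to 8 pups, so that n = 2 pools for every value. Each lens capsule was peeled off with its cells after the surrounding vessels had been cleaned away, so the fiber cells and vascular cells studied are those that stayed with the capsule.

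The lens has no blood supply of its own and lives in low oxygen, and glycolysis that ends in lactate is the main source of its ATP. Glucose enters through facilitative transporters, is trapped by hexokinase, and leaves as lactate through monocarboxylate transporters. The transcription factor subunits encoded by Hif1a and Epas1 raise the transcription of many of these genes when oxygen is scarce, and prolyl hydroxylases such as those encoded by Egln1 and Egln3 mark both subunits for destruction when oxygen is present. When glucose is plentiful, aldose reductase and sorbitol dehydrogenase divert part of it into the polyol pathway, which is known for its role in sugar cataract.

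Cells were sorted into 7 groups by marker genes that include none of the 33. Lens epithelial cells (LECs) were recognised by the alpha crystallins Cryaa and Cryab. Late differentiating LECs were the 1149 and 821 cells (replicate 1 and replicate 2) with the highest share of fiber cell transcripts such as the beta and gamma crystallins, and early differentiating LECs were 450 and 341 cells high in genes such as Cdkn1c and outside the late group. Cycling LECs, high in S phase or mitotic genes, numbered 1956 and 1557, and resting LECs, low in all of these lists, numbered 1217 and 877. Endothelial cells (Cldn5, Pecam1) numbered 325 and 213, mural cells (Rgs5, Pdgfrb) 143 and 178, and macrophages (C1qa, Pf4) 23 and 26. Levels are in CPM, the UMIs of a gene per 1000000 UMIs of all cells of a group in a pool, given for replicate 1 and then replicate 2. The 3′ chemistry counts 1 UMI per transcript, so levels of different genes were compared without scaling by length.

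Replicate 1 held 93839132 UMIs in 12314 barcodes and replicate 2 held 86033032 in 9425, with medians of 6307 and 8050 UMIs per barcode, and 27 barcode sequences occurred in both. In the groups the medians were 12043 and 13735 UMIs in late differentiating, 8286 and 10236 in early differentiating, 7990 and 9983 in cycling and 5525 and 6834 in resting LECs, and between 3042 and 4323 in the vascular cells and macrophages. Crystallins took 29.6% and 27.1% of all UMIs in late differentiating LECs, against 7.53% and 7.48% in resting LECs, which lowers every other gene's CPM there. Fold changes were therefore scaled by TMM factors, which set the median gene near no change outside macrophages. In macrophages the median log2 fold change over all genes was -0.72 against resting LECs. Scaling by library totals alone shifted the median of all genes by -0.57 on the log2 scale in late and -0.14 in early differentiating LECs, and by 0.18 in endothelial cells, 0.18 in mural cells and 0.33 in macrophages, each against resting LECs. All comparisons with resting LECs share the same resting cells, and all groups come from the same 2 libraries. The fit removed the overall difference between pools, so p-values rest only on how group differences varied between these 2 pools, over all 7 groups.

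**Figure D1:**
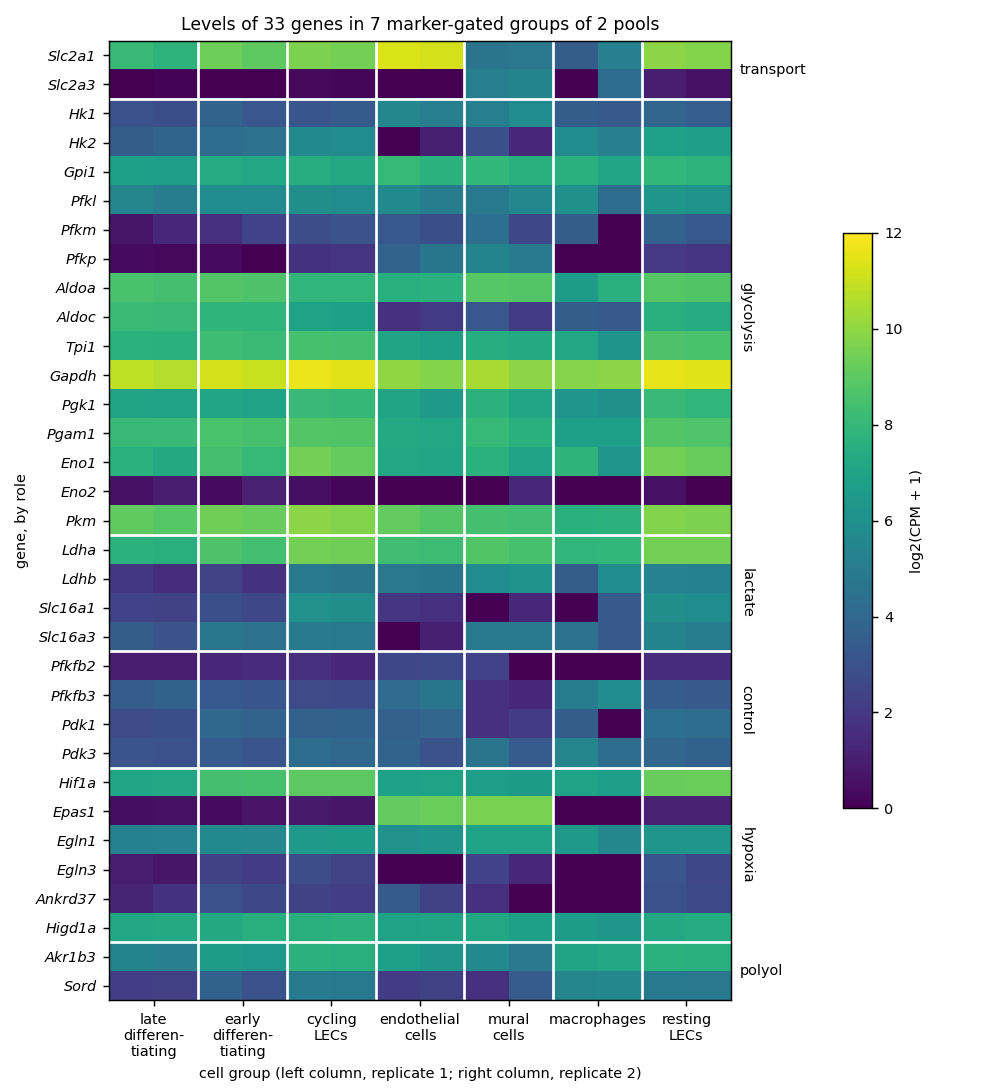
Levels of the 33 genes (rows, by role) in 7 cell groups (columns, replicate 1 left and replicate 2 right of each pair), as log2(CPM + 1) by color. Slc2a1 was highest in endothelial cells, Slc2a3 in mural cells, Hk2 in resting LECs, and Epas1 was near 0 in every LEC group.

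Differentiating cells were compared with resting cells to ask how this pathway differs as LECs become fiber cells. The 33 genes together made up 4895 and 4451 CPM in late differentiating, 6984 and 6159 CPM in early differentiating and 9754 and 8954 CPM in resting LECs. Of the 32 members that passed the filter on low counts (Eno2 did not), 23 fell and 4 rose in late differentiating LECs, at a Benjamini-Hochberg adjusted p under 0.05 in edgeR's quasi-likelihood test. Over all 12849 genes tested, 28% fell and 28.4% rose, and the median log2 fold change was -1.02 over the members and -0.02 over all genes. In early differentiating LECs 19 members fell and 2 rose, against 17.8% and 16.9% of all genes, with medians of -0.48 and -0.02. Slc2a3 passed the filter through its level in mural cells, and Epas1 through endothelial and mural cells. Pfkp also needed its level in endothelial and mural cells to pass, and Pfkfb2 its level in endothelial cells. The vascular tests of these genes are a description, because those cells let them into the test. With library totals in place of TMM factors, 1260 genes rose and 7871 fell in late differentiating LECs, and 1436 rose and 3170 fell in early ones, in place of 3653 and 3595, and of 2168 and 2292.

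**Figure D2:**
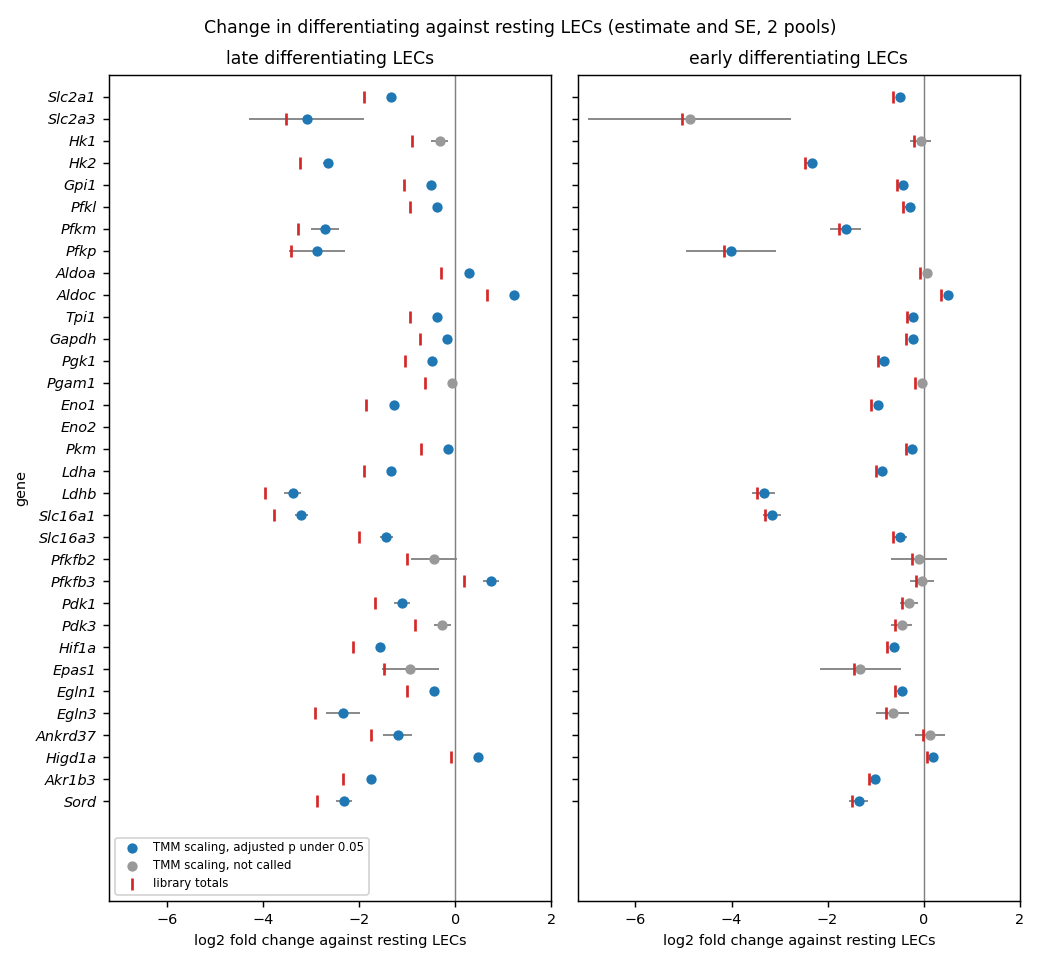
Log2 fold change of each gene in late (left) and early (right) differentiating LECs against resting LECs. Bars give the SE from the edgeR fit of all 7 groups in both pools. Filled points are TMM-scaled (blue, adjusted p under 0.05; grey, not called) and red ticks give the value with library totals; Ldhb and Slc16a1 lay below -3 in both panels, and Aldoc lay above 0 in both.

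The main glucose transporter gene and the main hexokinase gene of resting LECs were lower in differentiating cells. Slc2a1, which encodes the main glucose transporter of the lens (GLUT1), had 269.9 and 217 CPM in late differentiating, 659.7 and 514 CPM in early differentiating and 959 and 861 CPM in resting LECs. The 3 groups did not overlap, and the log2 fold change against resting LECs was -1.34 in late (adjusted p = 3.5e-127) and -0.50 in early differentiating LECs (adjusted p = 9.9e-18). Hk2 encodes the hexokinase that is inducible by insulin and hypoxia. It had 10.5 and 13.4 CPM in late, 18.8 and 21.0 CPM in early differentiating and 117 and 103 CPM in resting LECs. This was a fall of 2.66 on the log2 scale in late (SE 0.10, adjusted p = 9.7e-158) and of 2.34 in early differentiating LECs (SE 0.12, adjusted p = 5.2e-81). Hk1, the hexokinase of most tissues, was at 7.01 and 6.45 CPM in late and 13.9 and 11.0 CPM in resting LECs, and this difference was not called (adjusted p = 0.107). Slc2a3, which encodes the neuronal glucose transporter GLUT3, was near 0 in LECs, with 1 UMI in late differentiating, 0 in early differentiating and 9 in resting LECs over both pools, and its call in late cells rests on these counts and was not made by DESeq2. Its ratio of late to resting was 0.0576 with a counting interval of 0.00131 to 0.416 (exact, 95%, counting error only).

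Of the enzymes of glycolysis itself, 10 of the 14 tested fell in late differentiating LECs and 2 rose, where 28% of all genes fell and 28.4% rose. The isoforms of phosphofructokinase, the main control point of the pathway, all fell. Pfkl, the liver isoform and the main one in LECs, had 43.4 and 33.1 CPM in late and 80.6 and 67.6 CPM in resting LECs. Pfkm, the muscle isoform, had 0.650 and 1.64 CPM in late and 12.5 and 8.74 CPM in resting LECs, a log2 fold change of -2.71 (adjusted p = 1.4e-19). Its log2 fold change in early differentiating LECs was -1.62, called by edgeR (adjusted p = 3.9e-06) and not by DESeq2 (adjusted p = 0.0723). Pfkp, the platelet isoform, was rarer still, at 0.289 and 0.182 CPM in late and 2.93 and 2.64 CPM in resting LECs, and the calls of Pfkl and Pfkp were lost with a late gate that held no crystallin gene. Eno1, which encodes the ubiquitous enolase, had 203 and 158 CPM in late, 347 and 264 CPM in early differentiating and 711 and 589 CPM in resting LECs, and its log2 fold change was -1.28 in late and -0.96 in early cells (adjusted p = 1.9e-109 and 2.9e-53).

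For Gapdh, Pkm, Pgam1, Gpi1, Tpi1 and Pgk1, the TMM-scaled log2 fold changes in late differentiating LECs lay between -0.50 and -0.06. All of these but Pgam1 were called lower. Gapdh, the most abundant of the 33 in every LEC group, had 1832 and 1619 CPM in late and 3029 and 2689.6 CPM in resting LECs, and its TMM-scaled log2 fold change was -0.16. That of Pkm, which encodes pyruvate kinase, was -0.16, and that of Pgam1, which encodes phosphoglycerate mutase, was -0.06 and not called (adjusted p = 0.399). The log2 fold changes of Gpi1, Tpi1 and Pgk1, which encode phosphoglucose isomerase, triosephosphate isomerase and phosphoglycerate kinase, lay between -0.50 for Gpi1 and -0.37 for Tpi1. The calls of Gapdh and Pkm in late cells were lost without the pool as a block and under other alternatives. In early differentiating LECs the log2 fold change of Pgk1 was -0.82 (adjusted p = 2.2e-27). Eno2, the neuronal enolase, had 17 UMIs in late and 3 in resting LECs over both pools and was not tested.

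Aldoc, which encodes the brain isoform of aldolase, went the other way. It had 285 and 274 CPM in late, 228 and 228 CPM in early differentiating and 187 and 168 CPM in resting LECs. It rose by 1.22 on the log2 scale in late (adjusted p = 3.8e-87) and by 0.50 in early differentiating LECs (adjusted p = 1.1e-11), and in late cells it was also higher with library totals (0.66). Aldoa, the muscle and housekeeping isoform, had 372 and 352 CPM in late and 456 and 428 CPM in resting LECs, and its call depended on the scaling, with a log2 fold change of 0.28 with TMM factors and -0.29 with library totals. The ratio of isoforms within a cell group does not depend on this scaling. Aldoc made up 43.4% and 43.8% of the UMIs of Aldoa and Aldoc in late, 34.0% and 36.5% in early differentiating and 29.1% and 28.2% in resting LECs, and the pools of the late and resting groups did not overlap.

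The same was seen for enolase, through a gene outside the 33. Eno3, which encodes the muscle enolase, had 249 and 238 CPM in late, 190.5 and 194 CPM in early differentiating and 88.8 and 80.1 CPM in resting LECs. It made up 55.1% and 60.1% of the UMIs of Eno1 and Eno3 in late, 35.4% and 42.3% in early differentiating and 11.1% and 11.98% in resting LECs. Eno3 thus held more UMIs than Eno1 in late differentiating LECs of both pools and fewer in all other groups. Pgam2, the muscle phosphoglycerate mutase, made up 11.7% and 8.85% of the UMIs of Pgam1 and Pgam2 in late and 0.263% and 0.282% in resting LECs. Eno3 rose by 2.09 in late and 1.32 in early differentiating LECs on the log2 scale (adjusted p = 1.1e-206 and 5.3e-62). The log2 fold change of Pgam2 in late LECs was 5.33. Pgam2 passed the filter on low counts only through its level in late LECs, so its rise there is given as a description.

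**Figure D3:**
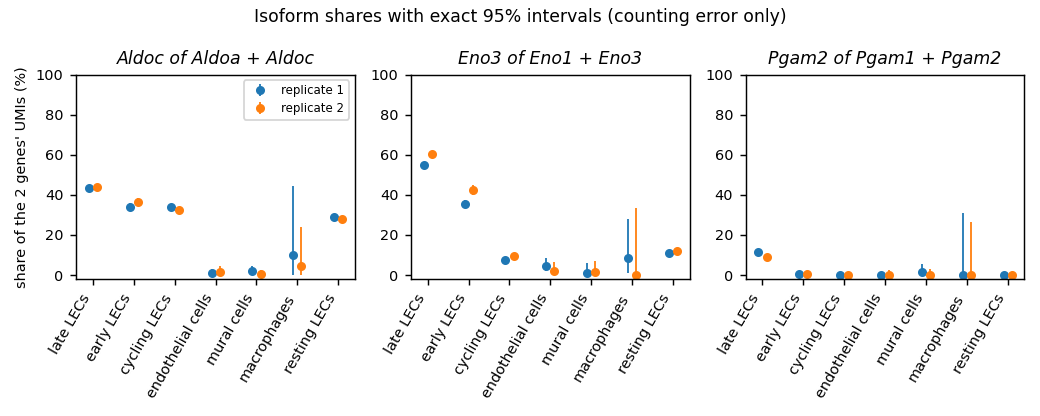
Share (%) of Aldoc, Eno3 and Pgam2 in the summed UMIs of each isoform pair, per cell group (x axis) and pool (color), with exact 95% intervals that cover counting error only. All 3 shares were highest in late differentiating LECs, at 43.4% and 43.8% for Aldoc, 55.1% and 60.1% for Eno3 and 11.7% and 8.85% for Pgam2.

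All 4 lactate genes fell in both differentiating groups, where 28% of all genes fell in late and 17.8% in early cells. Ldha, which encodes the lactate dehydrogenase subunit that favors lactate production, had 201 and 186 CPM in late, 395 and 325 CPM in early differentiating and 715 and 725 CPM in resting LECs (log2 fold change -1.33 and adjusted p = 9.2e-120 in late, -0.87 and 4.5e-46 in early cells). Ldhb, whose subunit favors the reverse reaction, had 2.82 and 2.00 CPM in late, 4.49 and 2.27 CPM in early differentiating and 39.1 and 37.1 CPM in resting LECs. Its log2 fold changes were -3.38 in late and -3.33 in early cells (adjusted p = 2.5e-84 and 1.8e-45). Slc16a1 encodes the monocarboxylate transporter MCT1. It had 4.41 and 4.00 CPM in late, 6.61 and 5.12 CPM in early differentiating and 59.5 and 56.2 CPM in resting LECs, with log2 fold changes of -3.21 and -3.16 (adjusted p = 4.4e-118 and 4.4e-65). Slc16a3 encodes MCT4, the exporter typical of highly glycolytic cells. It had 10.5 and 7.36 CPM in late, 24.8 and 21.9 CPM in early differentiating and 40.9 and 31.5 CPM in resting LECs. Its log2 fold changes were -1.43 in late and -0.50 in early cells (adjusted p = 5.7e-27 and 0.00236).

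Among the control genes, Pfkfb3, which encodes a strong producer of the phosphofructokinase activator fructose 2,6-bisphosphate, had 10.1 and 12.1 CPM in late and 10.1 and 9.23 CPM in resting LECs. It rose by 0.75 on the log2 scale with TMM factors (adjusted p = 3.0e-05), and the estimate was 0.18 with library totals. Pdk1 encodes a kinase that shuts pyruvate dehydrogenase and so keeps pyruvate out of mitochondria. It had 5.85 and 6.27 CPM in late and 20.1 and 18.3 CPM in resting LECs and fell by 1.10 (adjusted p = 1.2e-10). Pfkfb2, the heart isoform, was below 2 CPM in all LEC groups but cycling LECs of replicate 1, and Pdk3, another pyruvate dehydrogenase kinase gene, was not called in late cells (adjusted p = 0.173). In early differentiating LECs the adjusted p-values of these 4 genes lay between 0.104 for Pdk3 and 0.953 for Pfkfb3.

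Hif1a encodes HIF-1 alpha, and was the most abundant of the hypoxia-response genes among the members in resting LECs and lower in differentiating ones. It had 133 and 147 CPM in late, 355 and 363 CPM in early differentiating and 600.4 and 621 CPM in resting LECs, with log2 fold changes of -1.56 and -0.63 (adjusted p = 1.1e-152 and 4.4e-24). Egln1, the main oxygen-sensing prolyl hydroxylase gene, had 37.6 and 38.8 CPM in late and 74.6 and 79.6 CPM in resting LECs (-0.44, adjusted p = 4.9e-07). Egln3 and Ankrd37, which are themselves known targets of HIF, were rare and fell in late cells. Egln3 had 1.01 and 0.636 CPM in late and 7.92 and 4.78 CPM in resting LECs, and Ankrd37 had 1.37 and 2.36 CPM in late and 7.04 and 5.28 CPM in resting LECs. Higd1a, a hypoxia-inducible mitochondrial gene, had 145 and 159 CPM in late and 150.1 and 173 CPM in resting LECs, and its log2 fold change was 0.48 with TMM factors but -0.09 with library totals.

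Both polyol genes fell in late and early differentiating LECs, where 28% and 17.8% of all genes fell. Akr1b3, which encodes aldose reductase, had 41.3 and 36.3 CPM in late, 93.8 and 82.7 CPM in early differentiating and 205 and 186 CPM in resting LECs (log2 fold change -1.76 in late and -1.01 in early cells, adjusted p = 1.3e-124 and 2.1e-34). Sord, which encodes sorbitol dehydrogenase, had 3.61 and 3.82 CPM in late, 12.4 and 6.82 CPM in early differentiating and 27.4 and 27.4 CPM in resting LECs (-2.32 and -1.36, adjusted p = 5.3e-41 and 1.8e-11).

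To see where along differentiation the levels turned, LECs outside the cycling gate were ranked in each pool by their share of fiber cell transcripts and cut into 10 equal bins. In resting LECs Crybb3 made up most of these transcripts, at a mean of 14898 CPM, where the whole list summed to 17562 and 16718 CPM. The median share was 1.18% and 1.09% in bin 1 and 2.76% and 2.70% in bin 7. How far the order of these lower bins follows differentiation was not tested. Slc2a1 and Ldha changed little over the first 7 bins and dropped in the last 3. Slc2a1 had 954 and 865 CPM in bin 1, 966 and 835 CPM in bin 7, 529 and 399 CPM in bin 9 and 211 and 166 CPM in bin 10. Ldha had 678 and 675 CPM in bin 1, 694 and 622 CPM in bin 7 and 160.1 and 155 CPM in bin 10. Hk2, in contrast, was already lower within the epithelial bins, with 138 and 107 CPM in bin 1, 87.4 and 80.9 CPM in bin 3, 73.1 and 58.4 CPM in bin 5 and 8.06 and 13.5 CPM in bin 10. Slc16a1 had 63.0 and 59.6 CPM in bin 1, 45.7 and 47.1 CPM in bin 5, 35.0 and 22.6 CPM in bin 8 and 8.18 and 4.94 CPM in bin 9, its steepest step. Aldoc climbed through the bins, with 160.0 and 142 CPM in bin 1, 204 and 169 CPM in bin 5 and 288 and 285 CPM in bin 10. Of the 29 members with over 3 UMIs in the first and last bins of both pools, 28 were lower in bin 10 than in bin 1 in both pools and 1, Aldoc, was higher. With crystallin UMIs left out of the totals, 25 were lower and 4 higher. Such counts were not made over all genes, so they do not set the members apart from other genes. Crystallins took 6.46% and 6.44% of UMIs in bin 1 and 33.4% and 30.5% in bin 10.

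**Figure D4:**
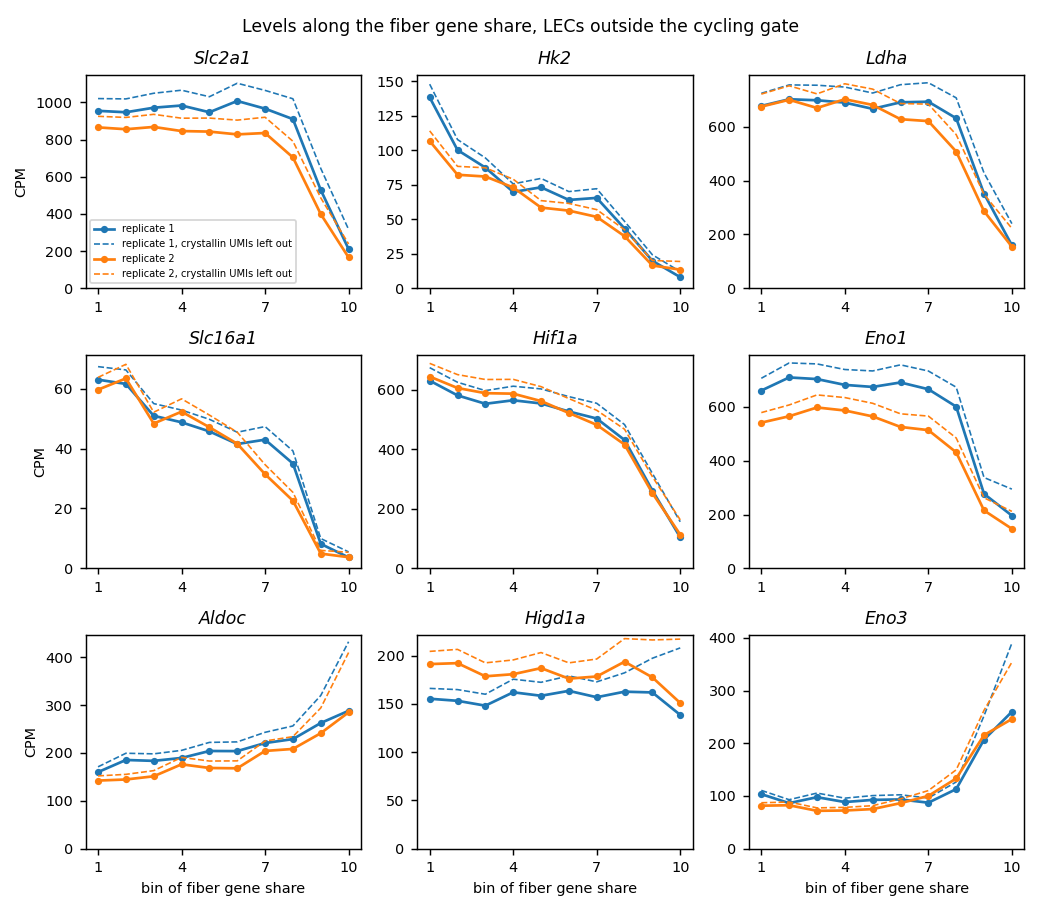
Level (CPM, y axis from 0) of 8 members and Eno3 over 10 bins of rising fiber gene share (x axis), per pool (color). Solid lines use all UMIs and dashed lines leave crystallin UMIs out of the total; Slc2a1, Ldha, Slc16a1, Hif1a and Eno1 dropped over bins 8 to 10, and Aldoc and Eno3 climbed.

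Promoter sequences are shown for 4 members that fell in late differentiating LECs and whose upstream bases hold the core letters of the hypoxia response element, ACGTG on either strand (written CACGT on the opposite one). Each is the 250 bases before a RefSeq start site on GRCm38.p6, 5′ to 3′ in the direction of the gene, with the matched letters in capitals. The Ldha stretch holds CACGTG, in which both strands match. It belongs to a RefSeq window of Ldha whose bases were not found at the start of any GENCODE transcript of the gene, while the Ldha window that did match one holds none of these letters. The windows shown for Hk2, Slc16a3 and Pgk1 did match a transcript start. Hk2 lies at chr6:82774455-82774704 on the minus strand, Ldha at chr7:46845554-46845803 on the plus strand, Slc16a3 at chr11:120948817-120949066 on the plus strand and Pgk1 at chrX:106186850-106187099 on the plus strand.
Hk2: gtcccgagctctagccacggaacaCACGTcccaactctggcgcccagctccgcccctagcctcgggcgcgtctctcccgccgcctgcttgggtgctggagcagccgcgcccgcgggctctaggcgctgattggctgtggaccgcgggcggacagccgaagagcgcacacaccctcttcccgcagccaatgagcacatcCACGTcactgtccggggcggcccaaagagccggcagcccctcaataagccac
Ldha: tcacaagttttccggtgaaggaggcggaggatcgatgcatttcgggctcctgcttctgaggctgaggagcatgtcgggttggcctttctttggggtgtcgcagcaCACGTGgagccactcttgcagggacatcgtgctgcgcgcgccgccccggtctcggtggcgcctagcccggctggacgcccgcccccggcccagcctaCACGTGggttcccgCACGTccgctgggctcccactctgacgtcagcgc
Slc16a3: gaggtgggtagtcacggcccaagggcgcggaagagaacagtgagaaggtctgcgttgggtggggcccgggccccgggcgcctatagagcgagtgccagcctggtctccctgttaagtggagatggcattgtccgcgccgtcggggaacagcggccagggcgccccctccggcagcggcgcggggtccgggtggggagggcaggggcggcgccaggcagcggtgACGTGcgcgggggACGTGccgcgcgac
Pgk1: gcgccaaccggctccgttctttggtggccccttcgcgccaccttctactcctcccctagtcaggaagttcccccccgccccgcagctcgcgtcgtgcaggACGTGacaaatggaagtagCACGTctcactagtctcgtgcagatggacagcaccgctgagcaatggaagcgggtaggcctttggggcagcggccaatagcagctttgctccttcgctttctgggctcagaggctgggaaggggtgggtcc
The letters start 226 and 52 bases before the start site in Hk2, 145, 48 and 34 in Ldha, 27 and 14 in Slc16a3, and 150 and 131 in Pgk1. Of the 30 members with a RefSeq window (250 bases before to 50 after each start), 21 held the letters in at least 1 window (70%), against 5886 of all 27025 genes with windows (21.8%). Counted by window, 25 of the members' 45 windows held them (55.6%), against 6447 of all 32851 (19.6%). The members were chosen in part as hypoxia-response genes, so these shares are no test of the members. The palindrome CACGTG was in windows of 6 members (20%) and of 8.09% of all genes. Aldoc and Higd1a also hold the letters, and Eno1, Sord and Ldhb do not, so members that fell were found with and without them. A match is a description of the letters in these windows only.

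Cycling LECs were compared with resting LECs to ask which members differ in dividing cells. In them 14 members fell and 5 rose, against 20.5% and 24.5% of all genes, and the median log2 fold change was -0.22 over the members and -0.01 over all genes. Hk2 fell most, with 53.1 and 53.5 CPM in cycling and 117 and 103 CPM in resting LECs (-1.01, adjusted p = 1.6e-41). Aldoa had 239.9 and 236 CPM in cycling and 456 and 428 CPM in resting LECs (-0.86, adjusted p = 1.8e-50). Both aldolase genes were lower, with Aldoc at 124 and 112 CPM in cycling and 187 and 168 CPM in resting LECs (-0.55, adjusted p = 9.6e-17). Pdk1 (-0.63, adjusted p = 2.3e-05), Ldhb (-0.54, adjusted p = 1.1e-06) and Gpi1 (-0.44, adjusted p = 6.2e-12) also fell. The calls of Hk1 (-0.46, adjusted p = 0.0125) and Pfkm (-0.61, adjusted p = 0.00562) were lost with DESeq2 (adjusted p = 0.156 and 0.478), without the pool as a block (0.0655 and 0.0711) and with stricter gates (0.104 and 0.0884). That of Pdk1 was lost with stricter gates (adjusted p = 0.0618).

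The 5 that rose did so by little. They were Pdk3 (0.33), Higd1a (0.32), Egln1 (0.26), Pkm (0.15) and Gapdh (0.13, adjusted p = 0.0265). Of these, Higd1a alone was called by DESeq2 and without the pool as a block, and Higd1a and Egln1 with library totals. Ldha had 709 and 682 CPM in cycling and 715 and 725 CPM in resting LECs and was not called (adjusted p = 0.819), nor were Eno1 (0.03), Slc16a1 (0.16), Akr1b3 (0.04) and Sord (0.12).

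Vascular cells and resting LECs differed in which members of the same families were high. In endothelial cells 21 members fell and 5 rose against resting LECs, where 30.2% of all genes fell and 29.1% rose. In mural cells 19 fell and 6 rose, where 23.4% and 22.5% of all genes did. The median log2 fold changes of the members were -1.09 in endothelial and -1.08 in mural cells, against -0.05 and -0.11 over all genes. Among those that rose, Slc2a3, Pfkp and Epas1 entered the test through vascular cells, so their rises there are given as a description. Between endothelial and mural cells themselves, 13 members were lower and 6 higher in endothelial cells, against 16% and 16.6% of all genes. Lens RNA was found in droplets of every type, and by the share of Cryaa and Cryab it came to 2.24% and 2.47% of a LEC's level in endothelial cells, 4.50% and 4.61% in mural cells and 4.16% and 3.06% in macrophages. By the mean of the pools, 6 members in endothelial cells were at or below this level relative to LECs (Slc2a3, Hk2, Aldoc, Eno2, Slc16a3, Egln3). So were 3 in mural cells (Slc2a1, Aldoc, Slc16a1) and 7 in macrophages.

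The gates held some other signals. Transcripts of the 25 mitotic genes summed to 1841 and 418 CPM in endothelial cells, 391 and 70.1 CPM in mural cells and 27.0 and 43.4 CPM in resting LECs, and they were higher in replicate 1 of both vascular types. The 6 fibroblast markers summed to 668 and 636 CPM in mural cells, against 40.6 and 39.2 CPM in resting LECs, from Col1a2 and Postn, with Dcn and Lum at 0. The 8 lens epithelial markers summed to 352 and 411 CPM in endothelial cells, most of it Gja1, against 3919 and 3755 CPM in resting LECs. The corneal list reached at most 4.55 CPM in any group and the retinal list at most 4.26 CPM outside macrophages, and the pigment list 8.24 CPM. The part of these signals in the results was not tested.

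Glucose transporter genes divided the vascular types. Slc2a1 had 2533 and 2430.4 CPM in endothelial cells, 23.9 and 26.1 CPM in mural cells and 959 and 861 CPM in resting LECs. It rose by 1.26 on the log2 scale in endothelial cells (adjusted p = 3.2e-112), and in mural cells, where it was at or below the level of lens RNA, the log2 fold change was -5.34 (adjusted p = 1.4e-246). Between endothelial and mural cells the log2 fold change was 6.60 ± 0.14 (SE), with an adjusted p too small to be represented. Slc2a3 had 34.8 and 40.8 CPM in mural cells and 0.880 and 0.495 CPM in resting LECs, a log2 fold change of 5.53 (adjusted p = 9.3e-23). In endothelial cells it had 0 UMIs, which makes it at least 30.7-fold lower there than in mural cells (3 counts over the group as the floor).

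Of the hexokinase genes, Hk1 was higher and Hk2 lower in both vascular types than in resting LECs. Hk1 had 45.3 and 34.5 CPM in endothelial cells, 34.8 and 55.5 CPM in mural cells and 13.9 and 11.0 CPM in resting LECs, a rise of 1.51 and 1.72 on the log2 scale (adjusted p = 9.1e-12 and 8.6e-09). Hk2 had 1 UMI in endothelial cells, against 1423 in resting LECs, and 6.52 and 1.63 CPM in mural cells. The ratio of endothelial to resting was 0.00376 with a counting interval of 9.5e-05 to 0.0210. In mural cells the log2 fold change of Hk2 was -5.05 (adjusted p = 4.3e-41). Pfkp had 13.1 and 24.1 CPM in endothelial cells, 41.3 and 31.0 CPM in mural cells and 2.93 and 2.64 CPM in resting LECs, a rise of 2.46 and 3.47 (adjusted p = 1.2e-09 and 8.6e-16). Pfkp made up 18.1% and 37.7% of phosphofructokinase UMIs in endothelial cells, 46.3% and 37.3% in mural cells and 3.05% and 3.34% in resting LECs. Endothelial cells were 1.01 below mural cells in Pfkp in edgeR (adjusted p = 0.0294), a call that DESeq2 did not make (adjusted p = 0.0850).

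**Figure D5:**
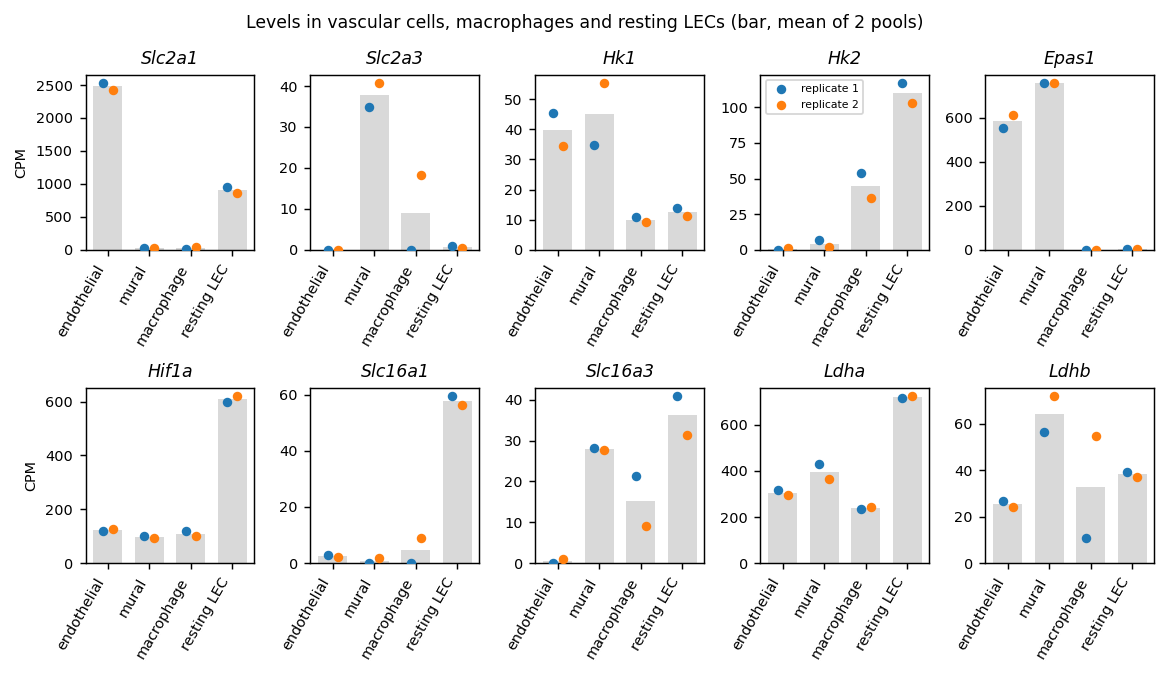
Level (CPM, y axis from 0) of 10 members in endothelial cells, mural cells, macrophages and resting LECs (x axis), with a bar for the mean of 2 pools and a point for each pool. Slc2a1 and Hk1 were high in endothelial cells, Slc2a3, Hk1 and Ldhb in mural cells, Epas1 in both, and Hk2, Hif1a and Slc16a1 in resting LECs.

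The shared enzymes of lower glycolysis were lower in vessels than in resting LECs. Eno1 had 143 and 136 CPM in endothelial cells, 202 and 122 CPM in mural cells and 711 and 589 CPM in resting LECs, a log2 fold change of -2.43 and -2.21 (adjusted p = 6.3e-166 and 5.0e-89). Tpi1, Gapdh, Pgk1, Pgam1 and Pkm fell in both vascular types as well, by 0.91 for Pkm to 1.86 for Tpi1 in endothelial cells and by 0.78 for Pgk1 to 1.48 for Gapdh and Pkm in mural cells. Aldoa separated the vascular types, with 192 and 203 CPM in endothelial cells, 478 and 442 CPM in mural cells and 456 and 428 CPM in resting LECs. Endothelial cells were lower than mural cells in Aldoa by 1.24 (adjusted p = 4.8e-27), and mural cells were not called against resting LECs (adjusted p = 0.263). Aldoc, abundant in the lens, had 2.06 and 3.14 CPM in endothelial and 8.70 and 3.26 CPM in mural cells, at or below the level of lens RNA, with log2 fold changes against resting LECs of -6.33 and -5.15 (adjusted p = 3.6e-134 and 1.3e-62).

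Lactate genes differed by type and by partner. Ldha had 315 and 296 CPM in endothelial cells, 431 and 364 CPM in mural cells and 715 and 725 CPM in resting LECs (-1.42 and -1.05, adjusted p = 5.3e-81 and 1.8e-32). Ldhb had 26.8 and 24.1 CPM in endothelial cells, 56.5 and 71.8 CPM in mural cells and 39.1 and 37.1 CPM in resting LECs. It fell by 0.76 in endothelial cells (adjusted p = 4.0e-04) and rose by 0.61 in mural cells (adjusted p = 0.0122), and endothelial cells were 1.37 below mural cells (adjusted p = 6.0e-06). Slc16a1 was close to absent from both, with 6 UMIs in endothelial and 1 in mural cells, against 747 in resting LECs. In endothelial cells it fell by 4.72 (adjusted p = 2.0e-44), and the ratio of mural to resting was 0.0161 with a counting interval of 0.000407 to 0.0899. Slc16a3 had 1 UMI in endothelial cells and 28.3 and 27.7 CPM in mural cells, against 40.9 and 31.5 CPM in resting LECs. Mural cells were not called against resting LECs (adjusted p = 0.109), and the ratio of endothelial to mural was 0.0148 with a counting interval of 0.000364 to 0.0892.

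Of the HIF alpha genes, Epas1 was higher and Hif1a lower in both vascular types than in resting LECs. Epas1, which encodes HIF-2 alpha, had 552 and 614 CPM in endothelial cells, 759 and 758 CPM in mural cells and 1.17 and 1.15 CPM in resting LECs. Its log2 fold changes against resting LECs were 8.75 ± 0.15 in endothelial and 9.13 ± 0.17 in mural cells (SE), with adjusted p-values too small to be represented, and endothelial cells were 0.38 below mural cells (adjusted p = 3.3e-05). Hif1a had 117 and 126 CPM in endothelial cells, 102 and 91.3 CPM in mural cells and 600.4 and 621 CPM in resting LECs (-2.52 and -2.85, adjusted p = 2.2e-166 and 5.8e-114). Egln1 had 66.6 and 74.3 CPM in endothelial cells, 119.6 and 119 CPM in mural cells and 74.6 and 79.6 CPM in resting LECs, and it rose by 0.45 in mural cells (adjusted p = 0.0102). In endothelial cells its log2 fold change was -0.32 with TMM factors (adjusted p = 0.0272) and -0.14 with library totals, and the call was lost with library totals, with DESeq2, without the block and under 6 other alternatives. The log2 fold change of Egln1 between endothelial and mural cells was -0.77 (adjusted p = 2.1e-04). Egln3 had 0 UMIs in endothelial cells, at least 5.18-fold lower than in resting LECs, and 3 in mural cells. Ankrd37 had 9.62 and 4.19 CPM in endothelial cells and 1 UMI in mural cells, against 7.04 and 5.28 CPM in resting LECs. Higd1a fell in both, by 0.55 in endothelial and 0.54 in mural cells.

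Of the control and polyol genes, Pfkfb3 had 17.2 and 24.1 CPM in endothelial cells, 2.17 and 1.63 CPM in mural cells (2 UMIs) and 10.1 and 9.23 CPM in resting LECs. It rose by 0.86 in endothelial cells (adjusted p = 0.00422), a call that was lost with stricter gates, and the ratio of endothelial to mural was 10.7 with a counting interval of 2.80 to 90.7 (adjusted p = 4.4e-05 in edgeR). Pdk1 was at 11.7 and 14.7 CPM in endothelial cells and 3 UMIs in mural cells, against 20.1 and 18.3 CPM in resting LECs, and the ratio of mural to resting was 0.145 with a counting interval of 0.0298 to 0.430. The ratio of endothelial to mural for Pdk1 was 4.60 with a counting interval of 1.43 to 23.5, a difference called by edgeR (adjusted p = 0.0161) and not by DESeq2 (adjusted p = 0.0670). Pfkfb2 and Pdk3 were not called in either type. Akr1b3 had 109 and 79.5 CPM in endothelial cells, 50.02 and 26.1 CPM in mural cells and 205 and 186 CPM in resting LECs (-1.21 and -2.59, adjusted p = 6.0e-29 and 9.0e-42), and endothelial cells were 1.37 above mural cells (adjusted p = 1.2e-07). Sord had 3.43 and 4.19 CPM in endothelial cells, 2.17 and 9.79 CPM in mural cells and 27.4 and 27.4 CPM in resting LECs (-3.06 and -2.23, adjusted p = 5.1e-16 and 4.7e-06).

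The macrophages, with 23 and 26 cells, had 2906 and 2744 CPM of the 33 genes. Against resting LECs 17 members fell and 1 rose, where 17.9% of all genes fell and 12.4% rose, with a median of -1.95 over the members and -0.72 over all genes. With library totals 1833 genes rose and 1476 fell, and with DESeq2 1964 and 1319, in place of 1597 and 2299. The member that rose was Pfkfb3, with 32.2 and 54.5 CPM in macrophages and 10.1 and 9.23 CPM in resting LECs (1.86, adjusted p = 0.0143). Slc2a1 fell by 5.53 (adjusted p = 8.4e-71), with 10.7 and 36.3 CPM in macrophages (1 and 4 UMIs). By the mean of the pools this was at or below the level of lens RNA, but not in replicate 2 alone. Hif1a (-2.82, adjusted p = 1.6e-31) and Eno1 (-2.46, adjusted p = 4.7e-29) were lower as well. Pkm, Pgam1, Tpi1 and Pgk1 fell by 2.21 for Pgk1 to 2.36 for Pkm, and Aldoc had 2 UMIs, a ratio to resting LECs of 0.0553 with a counting interval of 0.00670 to 0.200. Sord had 42.9 and 45.4 CPM in macrophages and 27.4 and 27.4 CPM in resting LECs and was not called (adjusted p = 0.662). Of the members not called, Pfkp, Pfkfb2, Epas1, Egln3 and Ankrd37 had 0 UMIs, which allows levels of up to 14.8 CPM.

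Shares of cells with a UMI were compared at 1 depth. With every cell thinned to 2000 UMIs, Slc2a1 was detected in 97.9% and 98.9% of endothelial cells, 6.56% and 4.88% of mural cells and 83.1% and 80.3% of resting LECs. Without thinning the shares were 98.2% and 100.0% in endothelial cells, 7.69% and 7.87% in mural cells and 98.5% and 99.2% in resting LECs. Epas1 was detected in 65.0% and 66.5% of thinned endothelial cells, 74.6% and 79.3% of mural cells and 0.166% and 0.114% of resting LECs (79.1% and 87.8%, 86.0% and 88.2% and 0.657% and 0.798% without thinning), the last of these a cell type with almost none. Hk2 was detected in 2.26% and 2.70% of thinned late differentiating LECs and 19.7% and 17.8% of resting LECs (11.1% and 15.6% and 45.3% and 45.6% without thinning), and Slc16a1 in 1.22% and 0.246% of late and 9.78% and 10.2% of resting LECs (5.05% and 4.99% and 26.7% and 31.1% without thinning). In endothelial cells, where Hk2 was at or below the level of lens RNA, its share was 0% and 0.469% without thinning. Thinning left out 85 and 31 shallower endothelial cells, 21 and 14 mural cells, 11 and 3 resting and 1 and 7 late differentiating LECs.

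Of 67 other genes of the same pathways, 49 were tested. In late differentiating LECs 18 rose and 14 fell, in early ones 10 and 15, in cycling LECs 5 and 19, in endothelial cells 12 and 22, in mural cells 12 and 21 and in macrophages 7 and 11, each against resting LECs. Between endothelial and mural cells 5 were higher and 9 lower in endothelial cells. Over all genes tested, 28.4% rose and 28% fell in late differentiating LECs, 16.9% and 17.8% in early ones, 24.5% and 20.5% in cycling LECs, 29.1% and 30.2% in endothelial cells, 22.5% and 23.4% in mural cells and 12.4% and 17.9% in macrophages. Between endothelial and mural cells 16.6% were higher and 16% lower. The 14 of 49 that fell in late differentiating LECs are thus near the share over all genes. Of the 11 other genes of glycolysis, 5 of the 6 tested rose in late differentiating LECs, Eno3 and Pgam2 among them. Pgam2 entered the test through these same late cells. Bpgm, which encodes the erythrocyte enzyme that makes 2,3-bisphosphoglycerate, had 244 and 177 CPM in endothelial cells and 32.3 and 31.7 CPM in resting LECs (log2 fold change 2.56, adjusted p = 7.8e-112). In endothelial cells the globin and red cell list summed to 44.0 and 190.5 CPM, against 21.3 and 9.07 CPM in resting LECs, and their part in the Bpgm level was not tested. Hk3, the hexokinase of myeloid cells, had 42.9 and 63.6 CPM in macrophages and 0 UMIs in resting LECs.

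The partners of the lactate carriers also differed. Bsg encodes basigin, the chaperone that brings MCT1 and MCT4 to the membrane, and had 587 and 534 CPM in late, 752 and 670.1 CPM in early differentiating and 1486 and 1432 CPM in resting LECs (log2 fold change -0.82 in late, adjusted p = 2.1e-53). Emb encodes embigin, which serves other carriers of the family, and had 168 and 155 CPM in late, 231 and 219 CPM in early differentiating and 58.5 and 62.8 CPM in resting LECs (1.99 in late and 2.03 in early cells, adjusted p = 9.8e-159 and 2.1e-139). The mitochondrial pyruvate carrier genes Mpc1 and Mpc2 were not called in late cells (adjusted p = 0.487 and 0.723). Of the control list, Pdk2 had 5.06 and 4.82 CPM in late and 43.8 and 43.5 CPM in resting LECs (-2.57, adjusted p = 5.3e-70). Txnip, whose product restrains glucose uptake, had 439.6 and 536 CPM in macrophages, 44.6 and 64.9 CPM in endothelial cells, 71.8 and 176 CPM in mural cells and 4.25 and 4.12 CPM in resting LECs.

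Of 17 other hypoxia-response genes tested, 5 rose and 5 fell in late differentiating LECs, near the 28.4% and 28% over all genes. Bnip3l, a mitophagy receptor gene, had 475 and 463 CPM in late and 483 and 419 CPM in resting LECs (0.62 with TMM factors, adjusted p = 2.5e-28, and 0.05 with library totals), and P4ha2, a collagen prolyl hydroxylase gene, had 37.4 and 30.0 CPM in late and 162 and 159.9 CPM in resting LECs (-1.68, adjusted p = 3.0e-104). Bhlhe40, a transcriptional repressor gene, was highest in endothelial cells, with 194 and 208 CPM, against 51.6 and 75.4 CPM in resting LECs. Mif, a cytokine gene, had 821 and 959.7 CPM in late and 895 and 1079.7 CPM in resting LECs, with a log2 fold change of 0.42 with TMM factors and -0.15 with library totals. In the list of polyol and pentose phosphate genes, 5 of 9 fell and 2 rose in late differentiating LECs. Tkt, which encodes transketolase, had 558 and 529 CPM in late, 874 and 758 CPM in early differentiating and 1548 and 1372 CPM in resting LECs (-0.86 in late, adjusted p = 4.7e-59), and 207 and 148 CPM in endothelial and 122 and 109 CPM in mural cells. Khk, which encodes the kinase that takes up the fructose made by sorbitol dehydrogenase, was highest in macrophages, with 161 and 218 CPM, against 22.3 and 23.4 CPM in resting LECs (2.73, adjusted p = 8.3e-15).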

How the data were processed

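Lens epithelium of wild-type C57BL/6N pups was profiled in 2 pools with 10x 3′ v3.1 chemistry. The deposited values are whole UMI counts per gene and barcode, and no normalization was applied before deposit. The authors made them with Cell Ranger on mm10, and the header of the deposited counts gives version 6.1.1. Barcodes were kept between the 2nd and 97th percentiles of UMIs and genes (948.76 to 20198.3 UMIs and 445.52 to 4261 genes) and at or under 15% mitochondrial UMIs, which left 11585 and 8517. Doublets were treated by dropping the 8% with the highest scrublet scores in each pool (scanpy 1.11.5), and barcodes under 1% mitochondrial UMIs were then dropped, which left 10498 and 7620. Groups were gated by marker lists that hold no member. Endothelial, mural and macrophage cells needed 4 UMIs from 3 genes of 1 list and under 1.5% Cryaa and Cryab. Late cells were the top 12% of LECs in the late list, and early cells the top 12% in the early list that were not late, both below the 80th percentile of the S phase and mitotic lists.

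UMIs were summed per pool and group and tested with edgeR 4.0.16 (R 4.3.3) by its quasi-likelihood test, with TMM factors, filterByExpr, all 7 groups in 1 fit and the pool as a block, since every group was taken from both pools. Benjamini-Hochberg adjustment ran over 12849 genes. Each edgeR SE is the size of the log2 fold change divided by the square root of the F statistic of this test. On simulated data for late against resting LECs, 161 of 200 changed genes were called, with 3 false calls among 11607 genes tested. The simulation held no pool effect and no group difference beyond these 200 genes. It therefore does not give the rate of false calls in the real data. Per comparison, tests were to be given in full for the 8 members that changed most, among those called, reaching 10 CPM in a group and with pools that did not disagree in sign, and up to 4 other genes per list were named by their highest level; fold changes beyond these were chosen after their values were seen. The members and lists were chosen with earlier results of these data known. Alternatives were DESeq2 1.42.0, RLE factors, library totals, no crystallin genes, no filter on low counts, no block, a fit of the compared groups alone, other quality limits and gates, subtraction of lens RNA, and each pool alone. The sources used here do not say whether the pools came from separate litters. The symbol Aldoa occurs on 2 identifiers, of which the first, with nearly all the UMIs, was used. Promoter windows are from RefSeq, and no member's window was found for Epas1, Slc2a3 and Akr1b3.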

Additional observations from a re-analysis of the deposited data

Results flagged for a closer look

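In 4 members the vascular types were called in opposite directions against the same resting LECs and were also called different from each other. They were picked for these calls, so their differences between endothelial and mural cells are given as a description. The log2 fold change between endothelial and mural cells was 6.60 (SE 0.14) for Slc2a1 and 3.40 (SE 0.76) for Pfkfb3, from 48 UMIs in endothelial and 2 in mural cells, both higher in endothelial cells. It was -1.37 (SE 0.28) for Ldhb and -0.77 (SE 0.19) for Egln1. The fall of Egln1 in endothelial cells was -0.14 with library totals and was not called there, and the rise of Pfkfb3 in endothelial cells was not called with stricter gates.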

How the results depend on the processing

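Library totals in place of TMM factors reversed the sign of Aldoa (-0.29) and Higd1a (-0.087) in late differentiating LECs and left 1 member that rose there, in place of 4. In early differentiating LECs 1 member rose, in place of 2, with DESeq2, with library totals, without the filter on low counts and without the replicate block. In cycling LECs, where 5 rose and 14 fell, 1 rose with DESeq2, 2 with RLE factors, 2 with library totals and 3 with stricter gates, and 9 fell with stricter gates. Without the pool as a replicate block 1 rose and 8 fell in cycling LECs. In macrophages 2 rose with DESeq2 and 0 in a fit of only the 2 groups compared, in place of 1. Of the 56 tests given by the naming rule, 6 lost their call under at least 1 alternative, and of all 155 calls on members 40 lost their call or turned. Computed in each pool alone, without a test, no called member changed sign. Macrophage values rest on 23 and 26 cells, and members with under 4 UMIs in a group are known only within their counting intervals. The causes of these changes were not tested.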
